A study of Drosophila melanogaster with 21 samples.

Results

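The regions examined here were cassette exons, internal exons that some transcripts of a gene include and others skip. A cassette exon was taken from the BDGP6 gene annotation as an internal exon whose outer splice sites, the upstream 5' site and the downstream 3' site, are joined directly as 1 intron in another transcript of the same gene. The annotation held 2477 such events over 2204 exons of 1224 genes, an event being an exon with 1 pair of outer splice sites. Inclusion was the summed transcript abundance of the including transcripts divided by that of the including plus the skipping transcripts, given as a percentage. Events were kept when the including and skipping transcripts together reached 1 TPM or more (transcripts per fixed total of transcripts, a level corrected for length) in all 21 libraries. That rule kept 1456 events, which cover 1345 exons of 787 genes among 13989 annotated genes. Just inside the limit, with a lowest summed level of 1.01, 1.01 and 1.02 TPM, were events of lilli, mim and jigr1. Just outside it, at 0.979, 0.979 and 0.999 TPM, were events of MTF-1, dpy and nahoda.

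An internal exon is defined when the spliceosome recognises the 3' splice site before it and the 5' splice site after it, and it is skipped when the flanking sites are paired with each other instead. The U2AF heterodimer reads the 3' splice site: its large subunit binds the polypyrimidine tract and its small subunit the AG at the end of the intron. LS2 is a Drosophila paralog of the large subunit, known from the testis, and changes which 3' splice sites are used. Skipping an exon whose length is a multiple of 3 keeps the reading frame, while skipping another coding exon shifts it.

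The libraries came from Drosophila melanogaster S2 cells, an embryonic line with haemocyte-like features, in 7 groups of 3. Every line carried an integrated, copper-inducible gene selected with hygromycin and stayed 53 h in 500 µM copper sulfate, the GFP controls included. GFP cells received GFP and no added LS2, and WT cells received unaltered LS2. The altered forms were d38 (W62A, D63A and I64A), RRM2 (F285D and F287D), Beta5 (K192E and R194E), SF1 (E370K and D371K) and GSlinker, in which residues H197 to P233 gave way to repeats of the GGS motif. The labels do not give the number of lines or cultures behind a group, so p-values measure the spread between these libraries, which may be technical. The series asked how these changes alter the regulation of alternative splicing by LS2.

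Library totals ran from 17667236 to 38553848 estimated counts. LS2 (FBgn0034834) stood at 1.46 to 3.97 TPM in the GFP libraries and at 5175 (SF1) to 8216 TPM (RRM2) in the others. That level matched the labels as to added LS2 or none. It does not tell the forms of LS2 apart, and neither their changes nor GFP itself were read in these data. Of 10 markers of S2 cells, all were detected, although NimC1 stayed at or under 0.192 TPM. Their summed level was 1023 to 1068 TPM in GFP and 583.6 to 684.8 TPM in WT. It was 754.7 to 819.9 TPM in d38, 800.3 to 912.3 in RRM2, 853.0 to 900.7 in Beta5, 886.7 to 1044 in GSlinker and 752.9 to 822.2 in SF1. Every marker had a lower mean in WT than in GFP. The fall of the sum was mostly that of Pxn (491.4 to 217.5 TPM) and Pvr (212.7 to 138.8), while srp hardly moved (98.97 to 97.97). The part of these differences in the results below was not tested. Summed neuron markers reached 2.48 to 8.48 TPM, and those of ovarian soma, muscle, testis germline and fat body stayed at or under 2.62 TPM. In bulk RNA, fewer cells of a type and less RNA per cell cannot be told apart. The libraries form 2 sets by the effective lengths of their transcripts. Over transcripts above 2000 nt, the gap between length and effective length had a standard deviation of 68.4 to 88.6 nt in GFP, WT, d38 and RRM2, and of 277.8 to 378.7 nt in Beta5, GSlinker and SF1. Comparisons across these sets cannot be told apart from the difference between the sets, and are kept for the end.

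The kept exons were short, with a median length of 123 nt and a middle range of 62 to 271 nt; the shortest, in AnxB10, had 3 nt. Their upstream introns had a median of 604.5 nt and their downstream introns one of 586 nt. Of the 1456 events, 889 (61.1%) lay wholly within the coding sequence, 272 (18.7%) held a start or stop codon, 285 (19.6%) were in a 5' UTR and 10 (0.687%) in a 3' UTR. Among the coding events, 788 had a length that is a multiple of 3 and 101 did not. A typical event rested on 1857 estimated counts per library (median over events). Mean inclusion over all libraries was 10% or less in 505 events, between 10% and 90% in 722 and 90% or more in 229.

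Mean inclusion over the 1456 events hardly moved between groups. The GFP mean was 39.3% ± 0.0277 (SD, n = 3 libraries) and the WT mean 38.8% ± 0.357. d38 had 39.5% ± 0.134, RRM2 38.7% ± 0.341, Beta5 38.9% ± 0.144, GSlinker 38.7% ± 0.208 and SF1 38.6% ± 0.119. The median event varied by 1.82 (d38) to 2.57 (SF1) percentage points between replicates. Inclusion thus differed event by event, with rises and falls that nearly cancelled in the mean. Each event was tested with limma on the log2 ratio of included to skipped fraction, over all 21 libraries in 1 fit, and called at a Benjamini-Hochberg adjusted p under 0.05 over the 1456 events. Below, a point is a percentage point of inclusion, and a log2 change is that of the inclusion ratio, with its standard error (SE).

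WT LS2 changed the inclusion of 290 events against GFP, 19.9% of those tested, in 245 genes. Exactly as many rose (145) as fell (145). Of the called events, 147 differed by 10 points or more (10.1% of those tested) and 52 by 20 points or more. In 282 of the 290 the 3 WT libraries did not overlap the 3 GFP libraries. The calls were made from these same libraries and favour groups that lie apart, so this count is not separate evidence for them. The share without overlap among events not called was not computed. Called events moved by a median of 10.1 points, against 2.86 points over all events. The rises started from low inclusion, with a median of 6.86% in GFP, and the falls from 61.3%, against 26.0% for events not called. The same GFP values sorted events into rises and falls, and an exon of low inclusion has little room to fall. This order of the medians is therefore partly built in, and whether it goes beyond that was not tested. Rising exons had a median length of 177 nt, falling exons 113 nt and exons not called 120 nt. The called events also had more counts (medians of 3423 for rises and 2905 for falls) than the rest (1666), so the test had more data for them.

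**Figure D1:**
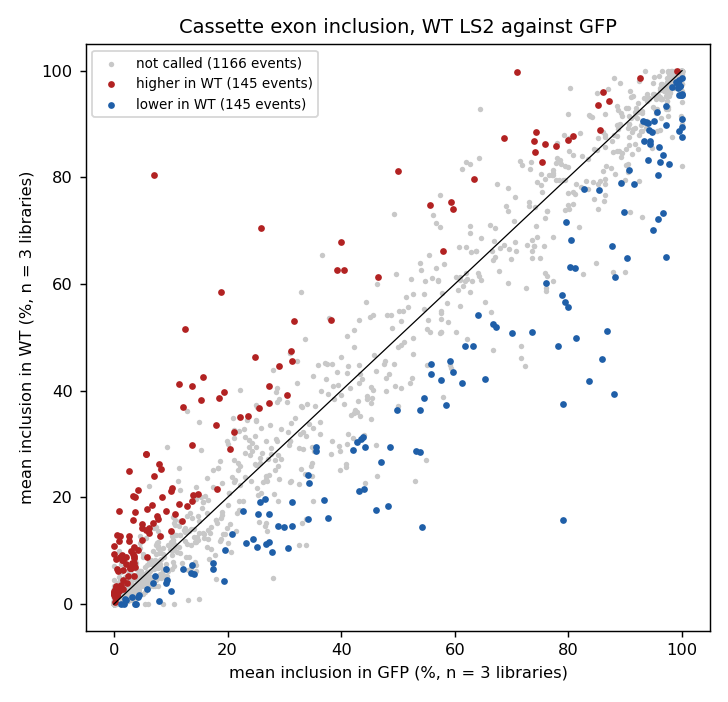
Mean inclusion (%) of each of the 1456 cassette exon events in GFP (horizontal) and WT (vertical), 3 libraries each. Red points are the 145 events called higher in WT, blue points the 145 called lower, and grey points the other 1166; the line marks equal inclusion.

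Among rising exons, that of nemy, which encodes a cytochrome b561 family protein, moved the most of the 12 taken by the naming rule, which reads each exon from its event with most counts (a wider rise in wdb is given below). It has 248 nt (2R:12664985-12665232, minus strand) and holds a start or stop codon. Inclusion was 27.6, 27.4 and 22.7% in GFP and 85.5, 69.1 and 57.0% in WT. The groups were far apart, although the WT libraries spread over almost 30 points, and the log2 change was 2.83 (SE 0.39, adjusted p 0.000107). The 873-nt exon in the 5' UTR of Usp2, a deubiquitinase, lies at X:22462400-22463272 (plus strand). Read between Usp2-RG, which includes it, and Usp2-RF and Usp2-RI, inclusion was 24.2, 15.2 and 17.4% in GFP. In WT it was 59.8, 54.6 and 61.1%, a log2 change of 2.55 (SE 0.24, adjusted p 1.83e-06). Every WT library lay more than 30 points above every GFP library. The same exon forms a second event, read between Usp2-RE, Usp2-RD and Usp2-RA and the skipping Usp2-RH. There its mean inclusion was 6.34% in GFP and 3.35% in WT, the other direction, and was not called (adjusted p 0.0707).

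Mlf encodes a myeloid leukemia factor with a role in fly blood cells, the lineage S2 cells resemble. Its 306-nt exon (2R:15937021-15937326, minus strand) went from 35.3, 43.7 and 40.7% in GFP to 67.5, 69.1 and 66.7% in WT (adjusted p 3.24e-05). In CG12065 an 81-nt coding exon (X:8584843-8584923, plus strand) had 8044 to 15160 estimated counts per library. Inclusion was 5.34, 6.59 and 5.17% in GFP and 28.1, 27.6 and 28.9% in WT (log2 change 2.52, SE 0.11, adjusted p 1.58e-10). The replicates of both groups agreed within 1.5 points. In Rcd1, a subunit of the NSL chromatin complex, a 60-nt coding exon (2R:14150036-14150095, minus strand) rose from 11.4, 12.01 and 23.8% to 42.6, 40.7 and 44.5% (adjusted p 0.00108). The 181-nt exon of CtsL1 (2R:13965605-13965785, plus strand), which encodes the lysosomal protease cathepsin L, rose from 31.7, 48.4 and 38.01% to 60.8, 64.5 and 62.6% (adjusted p 0.00197).

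The other named rises were in CG1674 (11.5% ± 6.24 to 41.3% ± 1.88, SD, n = 3), CG10737 (71.0% ± 27.1 to 99.7% ± 0.393), the matrix metalloproteinase Mmp1 (13.8% ± 4.79 to 41.0% ± 12.4), the DOCK-family exchange factor Ziz (12.2% ± 9.81 to 36.9% ± 6.81) and the diacylglycerol kinase rdgA (15.4% ± 4.09 to 38.3% ± 4.71). For Ziz the direction depended on the transcripts counted: with only transcript pairs that differ by the exon's introns, its inclusion fell by 24.4 points (adjusted p 0.0018) in place of a rise of 24.7. With the same restriction the rise of CG1674 was 51.8 points in place of 29.8.

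The largest fall in inclusion between GFP and WT was in DIP1, which encodes a double-stranded RNA-binding protein. The exon has 945 nt in the 5' UTR (X:21628848-21629792, minus strand). Inclusion was 80.6, 76.7 and 79.8% in GFP and 14.3, 19.0 and 14.1% in WT, with a log2 change of -4.22 (SE 0.16, adjusted p 6.09e-11). Most DIP1 transcripts of this pair thus carried the exon in every GFP library and lacked it in every WT library. Both isoforms contributed: DIP1-RG, which includes the exon, went from 10.7 to 4.28 TPM (means), and DIP1-RD, which skips it, from 2.85 to 22.8 TPM.

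Translation initiation was touched in eIF4B, whose product aids the eIF4A helicase. A coding exon of 61 nt (3L:27847425-27847485, minus strand), not a multiple of 3, was included in 86.1, 87.8 and 86.6% in GFP and in 46.5, 53.4 and 53.6% in WT (log2 change -2.57, SE 0.13, adjusted p 1.38e-09). The including transcript eIF4B-RB went from 88.8 to 67.8 TPM and the skipping transcript eIF4B-RF from 13.4 to 65.0 TPM. These are the highest levels among the 4 genes whose isoforms are plotted. In eIF2Bdelta, a subunit of the exchange factor for eIF2, a 38-nt exon (2R:23386790-23386827, plus strand) fell from 51.7, 51.9 and 41.0% to 21.9, 16.7 and 16.8% (adjusted p 0.00206).

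LRR encodes a leucine-rich repeat protein, and its 407-nt coding exon (2R:7677998-7678404, minus strand) went from 88.3, 87.6 and 87.9% in GFP to 41.3, 35.4 and 41.7% in WT (log2 change -3.37, SE 0.22, adjusted p 3.7e-08). ATP8B, a lipid flippase, lost inclusion of a 690-nt coding exon (3R:12074204-12074893, minus strand), from 84.4, 78.2 and 74.5% to 40.4, 39.4 and 32.7% (adjusted p 1.07e-05). In the small GTPase gene Rala a 124-nt exon (X:3707368-3707491, minus strand) fell from 86.2, 86.9 and 91.4% to 60.5, 60.1 and 63.4% (adjusted p 9.25e-07). No WT library reached a GFP library in these 3 exons, but the naming rule required this of every named exon. A 36-nt coding exon of Rtnl1 (2L:5004172-5004207, minus strand), a reticulon that shapes the endoplasmic reticulum, fell from 56.6, 42.2 and 39.7% to 14.3, 20.9 and 17.6% (adjusted p 0.000396).

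The other named falls were in mtd (83.6% ± 2.98 to 41.7% ± 11.1, SD, n = 3), the histone H3 lysine 4 methyltransferase gene trx (85.9% ± 16.4 to 45.9% ± 19.9), CG9967 (97.3% ± 4.74 to 65.1% ± 11.5), loqs (81.3% ± 12.2 to 49.9% ± 14.1) and MESK2 (78.1% ± 8.85 to 48.5% ± 0.363). The loqs exon, 138 nt of coding sequence at 2L:13384657-13384794 (plus strand), separates the isoform Loqs-PB, the partner of Dicer-1 in microRNA processing, from the shorter Loqs-PA. It rested on few reads (103.6 to 327.1 estimated counts), as did that of CG9967 (60.2 to 231).

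Fitted on the GFP and WT libraries alone, 6 of the calls described above missed the threshold, those of CG10737, Mmp1, Ziz, trx, CG9967 and loqs, with adjusted p between 0.0565 and 0.167. Leaving out 1 library ended the call for CG10737 (adjusted p up to 0.105, and a difference of 13.7 points, without GFP replicate 2; also without GFP replicate 1 and WT replicates 1 and 2), Ziz (0.0649 without GFP replicate 1 and 0.0531 without GFP replicate 2), loqs (0.0857 without GFP replicate 1, also without WT replicates 2 and 3), rdgA (0.0656 without GFP replicate 2, also without WT replicate 2) and MESK2 (0.0797 without GFP replicate 3).

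**Figure D2:**
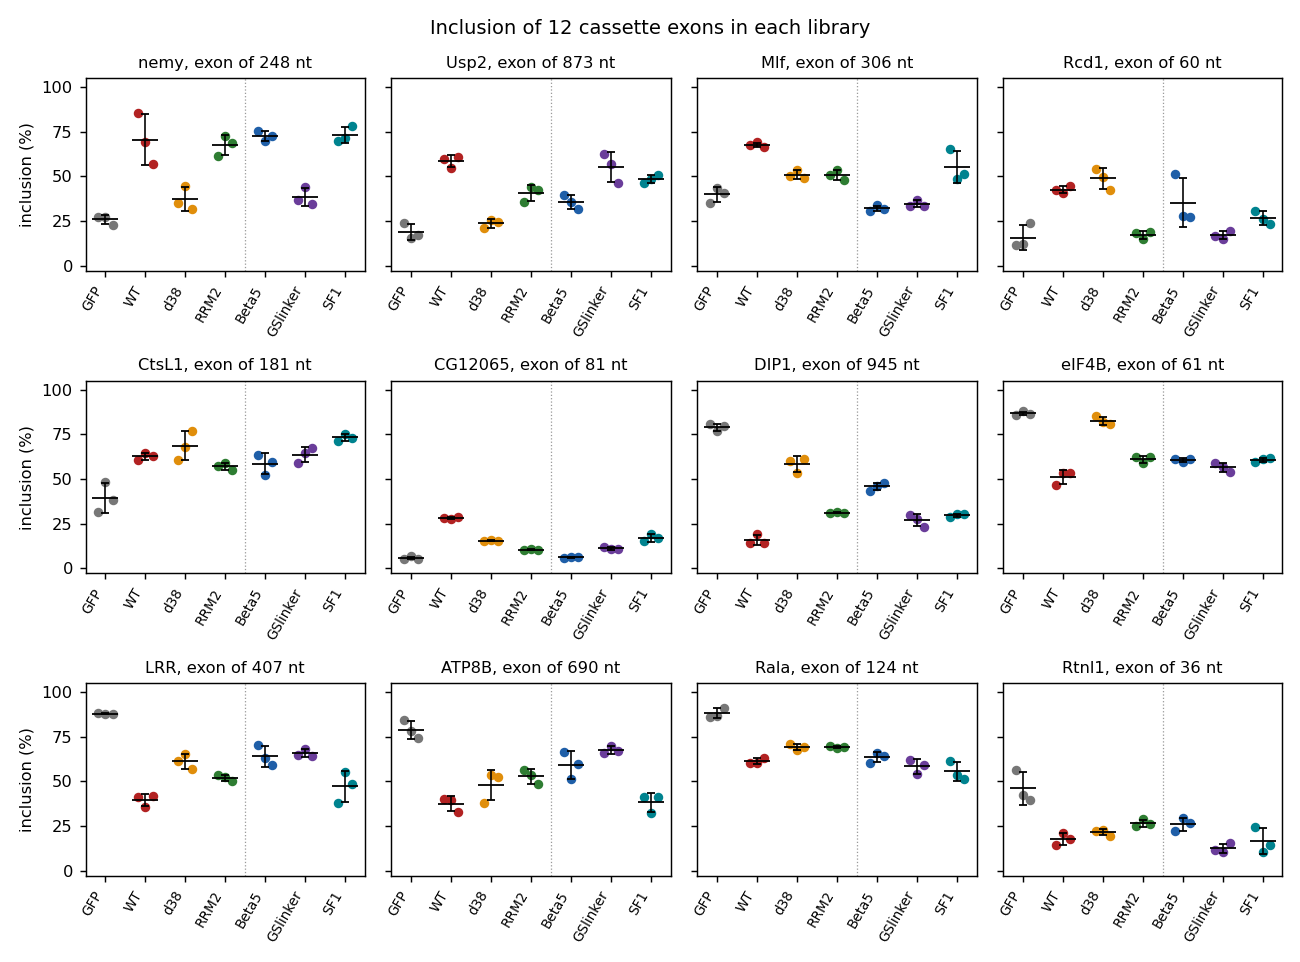
Inclusion (%) of 12 cassette exons in each of the 21 libraries, by group. Points are libraries, the horizontal mark and bar are the mean and SD of 3, and the dotted line divides the 2 library sets. The first 6 exons were higher in WT than in GFP and the last 6 lower; DIP1 fell from 79.0% in GFP to 15.8% in WT, with d38 at 58.2% and RRM2 at 31.2%.

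The widest difference of all 290 calls was in wdb, a B' regulatory subunit of the phosphatase PP2A. An exon of 169 nt in its 5' UTR (3R:27580157-27580325, minus strand) forms 2 events, as it can lie between either of 2 pairs of outer splice sites. Between the transcripts wdb-RE and wdb-RC inclusion was 0, 13.4 and 8.01% in GFP and 83.2, 79.4 and 78.7% in WT (log2 change 6.20, SE 1.29, adjusted p 0.00282). Between wdb-RD and wdb-RB the same exon went the other way, from 34.3% ± 3.29 (SD, n = 3) to 22.7% ± 2.84 (adjusted p 0.00187). The direction of an exon in wdb therefore depends on the pair of transcripts it is read from. Of the 103 exons that appear in several kept events (214 events), 6 had several calls between WT and GFP. In 3 of them, in wdb, sw and Usp2, the calls had opposite signs. In sw, a dynein intermediate chain gene, a 48-nt exon fell from 95.7% to 80.5% in 1 event and rose from 6.86% to 15.2% in another. The opposite calls of Usp2 concern a second exon, of 1984 nt, which fell from 17.5% to 6.50% between Usp2-RF and Usp2-RH and rose from 50.1% to 81.2% against Usp2-RE, Usp2-RD and Usp2-RA.

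**Figure D3:**
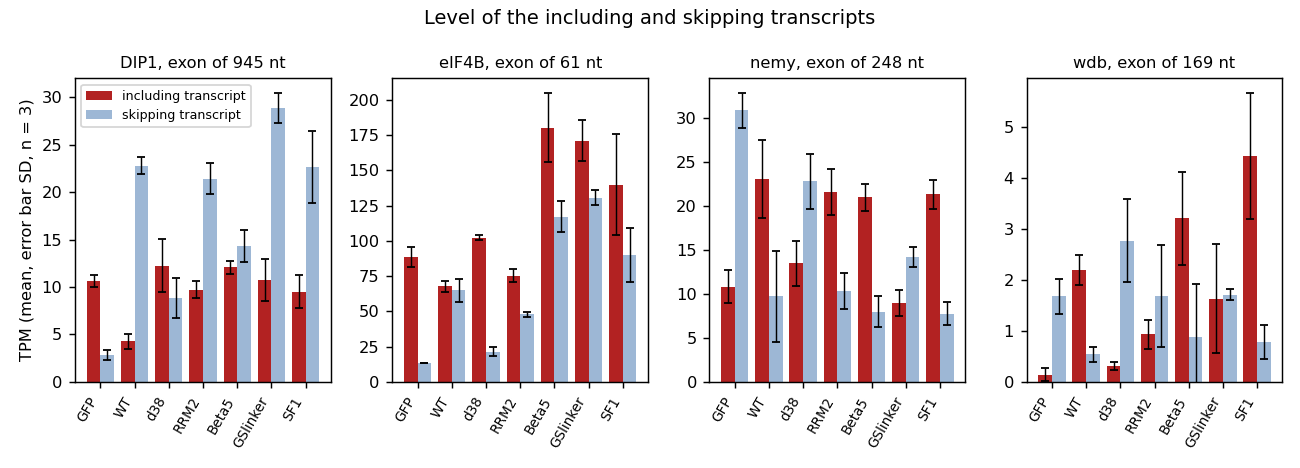
Level (TPM) of the including (red) and skipping (blue) transcripts of 4 cassette exons in the 7 groups. Bars are means of 3 libraries and error bars their SD. The skipping isoform of DIP1 rises from 2.85 TPM in GFP to 22.8 TPM in WT, and that of eIF4B from 13.4 to 65.0 TPM.

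Inclusion was a ratio of transcript levels, so reads elsewhere in a transcript enter it. In 264 events a single including and a single skipping transcript have the same other introns and ends within 25 nt of each other, so that the exon is nearly all that separates them. Of these, 56 (21.2%) were called between WT and GFP, 24 higher and 32 lower, close to the 19.9% of all events. The named exons of nemy, CtsL1, trx, eIF4B, loqs, eIF2Bdelta and MESK2 are among them; those of DIP1, LRR, Usp2 and the others are not. With events restricted to transcript pairs that differ only by the exon's introns (minimal pairs), 882 events could be tested and 183 were called, 87 higher and 96 lower.

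Calls were spread over the classes of exon by place and size. Of coding exons, 177 (19.9%) were called, 98 higher and 79 lower. Among coding exons whose length is a multiple of 3, 92 rose and 67 fell (20.2% called in all), while among the 101 other coding exons 6 rose and 12 fell (17.8%). Exons with a start or stop codon were called in 63 events (23.2%; 29 higher, 34 lower) and 5' UTR exons in 50 (17.5%; 18 higher, 32 lower). Of the 10 events in a 3' UTR, 0 were called. By size, the share called was 17.5% up to 30 nt, 17.8% over 30 to 100 nt, 20.2% over 100 to 300 nt and 23.5% above 300 nt. Exons above 300 nt had 48 rises and 31 falls, those of over 30 to 100 nt 33 rises and 55 falls. After an upstream intron of at most 100 nt 15 events (11.9%) were called, after one of over 100 to 1000 nt 177 (22%) and after a longer one 98 (18.6%). These shares are descriptions beside the 19.9% of all events, and no class was tested against another.

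**Figure D4:**
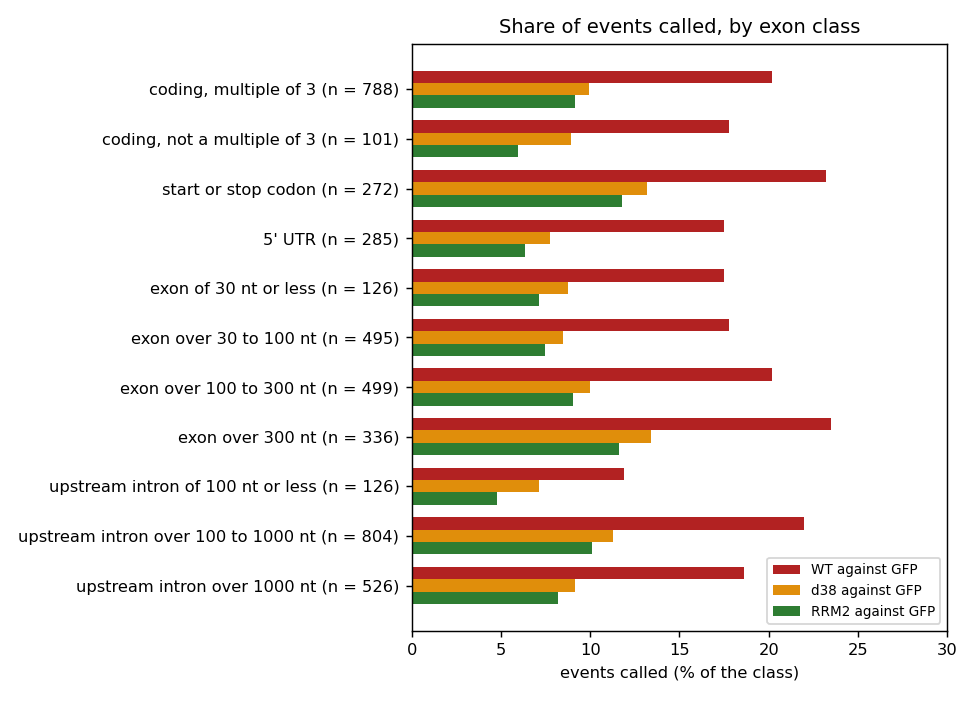
Share of cassette exon events called (%) in classes of exon by place, length and upstream intron length, for WT (red), d38 (orange) and RRM2 (green) against GFP. The number of events in each class is given in brackets; WT has the longest bar in every class shown, from 11.9% to 23.5%. The 3 comparisons share the GFP libraries. Not shown are the 10 events in a 3' UTR, of which 0 were called for WT, 3 for d38 and 2 for RRM2.

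The events were also read in 8 lists of genes by role, chosen with earlier results of these data known. The shares and medians of the lists are descriptions, and whether a list differs from the other events was not tested. Of 25 events in genes of translation and RNA metabolism, 3 rose and 6 fell (36%), with a median absolute difference of 6.81 points over the list against 2.86 points over all events. Beside eIF4B and loqs, a 90-nt coding exon of the initiation factor eIF4H1 rose from 0.973% ± 0.129 (SD, n = 3) to 11.8% ± 0.236 (adjusted p 1.04e-06). In eIF4E1, which encodes the cap-binding protein, a 567-nt exon fell from 54.0% ± 2.68 to 36.3% ± 5.25 (adjusted p 0.00337). An exon of pum, a translational repressor, rose from 73.9% to 86.9% (adjusted p 0.0499), and one of Adar, the RNA-editing deaminase, fell by 7.34 points (adjusted p 0.00584). The 3 remaining calls, in Pop2, eIF4G1 and twin, moved by under 3 points.

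Of 29 events in membrane trafficking and endocytosis genes, 3 rose and 5 fell (27.6%; median 2.17 points). A 36-nt exon of the endophilin EndoB rose from 2.67% to 11.9% (adjusted p 0.000275), and an exon of the endocytic adaptor Eps-15 fell from 91.5% to 78.7% (adjusted p 0.00302). Of 72 events in chromatin and transcription genes, 8 rose and 7 fell (20.8%; median 3.17 points). The 1098-nt exon of the corepressor Sin3A rose from 8.28% ± 0.936 to 25.3% ± 1.97 (adjusted p 6.45e-07), and a 339-nt exon of crc, the fly ATF4, from 6.22% to 14.3% (adjusted p 4.07e-07). A 64-nt exon of the deacetylase HDAC4 fell from 94.8% to 70.2% (adjusted p 0.000209), and a 966-nt exon of the ecdysone receptor EcR from 58.4% to 37.3% (adjusted p 0.0374).

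Of 61 events in kinase, phosphatase and signalling adaptor genes, 7 rose and 3 fell (16.4%; median 1.85 points). In the tyrosine kinase gene Abl a 54-nt exon fell from 37.0% to 19.6% (adjusted p 0.00919), and in yki, the Hippo pathway coactivator, a 156-nt exon rose from 74.2% to 84.7% (adjusted p 0.00114). Of 45 events in ion transport and transporter genes, 6 rose and 3 fell (20%; median 3.06 points). Of 38 events in adhesion, matrix and receptor genes, 4 were called (10.5%; median 1.93 points), all higher. The largest of those 4 was in the cell adhesion gene Nrg, from 0.577% to 13.0% (adjusted p 0.000209).

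Cytoskeletal genes had 13 calls in 107 events, 6 higher and 7 lower (12.1%; median 1.40 points), among them a 39-nt exon of the dynein heavy chain Dhc64C, from 61.3% to 41.4% (adjusted p 0.0374). Splicing factors and regulators had 7 calls in 62 events, 3 higher and 4 lower (11.3%; median 2.47 points). In the gene SF1, whose product binds the branch point, a 76-nt coding exon rose from 86.1% ± 2.30 to 95.9% ± 0.813 (adjusted p 0.00536). In Sxl, the master gene of sex determination and a splicing regulator itself, a 66-nt exon fell from 61.7% ± 2.91 to 48.3% ± 3.07 (adjusted p 0.0378). In hfp, the fly PUF60, 5' UTR exons of 237 and 56 nt fell by 18.2 and 18.1 points (adjusted p 0.039 and 0.012).

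d38 LS2 changed 148 events against GFP (10.2%), 85 higher and 63 lower, and 62 of them (4.26% of those tested) by 10 points or more. RRM2 LS2 changed 130 (8.93%), 67 higher and 63 lower, 59 of them (4.05%) by 10 points or more. Both were fewer than the 290 of WT. Set directly against WT, d38 differed in 128 events (8.79%), 65 higher and 63 lower, with 62 (4.26%) at 10 points or more. RRM2 differed from WT in 54 (3.71%), 18 higher and 36 lower, with 25 (1.72%) at 10 points or more. These 4 comparisons share the GFP or the WT libraries. Of the 65 exons higher in d38 than in WT, 46.2% had a length that is a multiple of 3, against 66.7% of the 63 lower ones and 68.7% of those not called. Their downstream introns had a median of 280 nt, against 652 and 597.5 nt.

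**Figure D5:**
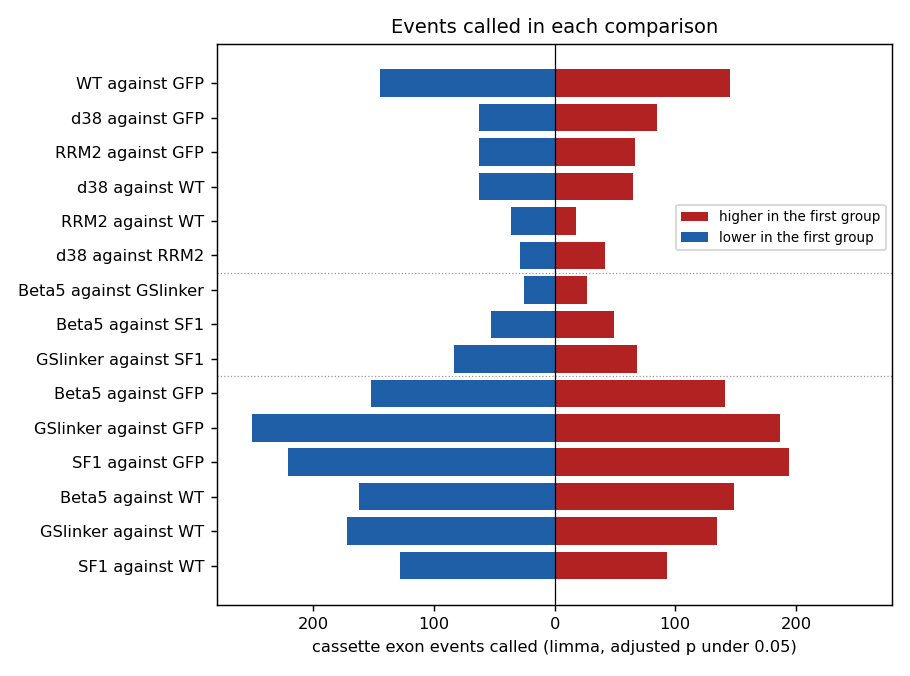
Cassette exon events called (limma, adjusted p under 0.05) in each of 15 comparisons. Red bars to the right count events higher in the first group named and blue bars to the left events lower there. Dotted lines part the comparisons within the set of GFP, WT, d38 and RRM2, those within the set of Beta5, GSlinker and SF1, and those across the sets.

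The direct comparison of d38 with RRM2, which uses neither GFP nor WT libraries, gave 71 called events (4.88%), 42 higher and 29 lower in d38, with 30 (2.06%) at 10 points or more. The exons changed by WT differed in how these altered forms left them. For DIP1, inclusion was 60.1, 53.1 and 61.5% in d38 and 31.1, 31.6 and 30.9% in RRM2 (adjusted p 1.76e-05 between them). d38 lay nearer to the 79.0% of GFP and RRM2 nearer to the 15.8% of WT, and both differed from WT (adjusted p 2.24e-08 and 0.000347). The eIF4B exon was included in 85.1, 82.2 and 80.7% in d38 and in 62.3, 58.7 and 62.2% in RRM2 (adjusted p 6.93e-06), again with RRM2 on the side of WT.

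The rising exons of nemy and Usp2 had the same order. nemy stood at 35.3, 44.6 and 31.5% in d38 and at 61.5, 72.7 and 68.6% in RRM2 (adjusted p 0.0133). That call was lost without d38 replicate 3 or RRM2 replicate 2 (adjusted p 0.0722 and 0.0682) and in a fit within the first library set (0.0556). RRM2 did not differ detectably from the 70.5% of WT (adjusted p 0.852), while d38 did (adjusted p 0.00282, and 0.11 from the 2 groups alone). Usp2 stood at 23.8% ± 2.45 (SD, n = 3) in d38 and 40.6% ± 4.39 in RRM2 (adjusted p 0.013), both under the 58.5% of WT (adjusted p 3.13e-05 and 0.0231). The exon of wdb counted between wdb-RE and wdb-RC was included in 6.73, 13.4 and 11.2% in d38 against 80.4% in WT, the largest difference between these groups (log2 change -5.02, SE 1.29, adjusted p 0.0228). That call was lost when any of the 6 libraries was left out, with adjusted p from 0.0528 to 0.08, while the difference stayed between 68.2 and 71.5 points. With every transcript that has the exon counted as including, d38 lay 13.3 points under WT (adjusted p 0.0634).

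Other exons had the opposite order. That of Rcd1 was included in 54.5, 49.8 and 42.4% in d38 and in 18.5, 14.8 and 18.8% in RRM2 (adjusted p 0.00258), which puts d38 beside the 42.6% of WT and RRM2 beside the 15.7% of GFP. pyd encodes the junction protein ZO-1 of the fly, and its 2171-nt coding exon (3R:8828835-8831005, minus strand) was at 46.8, 42.0 and 43.4% in d38 and 65.1, 57.9 and 57.7% in RRM2. GFP had 63.8, 65.0 and 67.1% and WT 41.2, 41.6 and 43.8%. There d38 and RRM2 differed (adjusted p 0.00195), as did RRM2 and WT (adjusted p 0.000935), while d38 and WT did not differ detectably (adjusted p 0.752). Both results depended on the transcripts counted: with minimal pairs, d38 and RRM2 differed by 19.8 points in Rcd1 (adjusted p 0.309). For the pyd exon, the call between RRM2 and WT was lost with minimal pairs. The difference there was exactly 0 points, which is not read as equal inclusion. From the RRM2 and WT libraries alone the pyd call was also lost (adjusted p 0.0549).

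In a few exons every library of an altered form lay outside the values of the GFP and WT libraries. For ema and Zn72D no test of d38 against GFP is given here, and for hppy RRM2 did not differ detectably from GFP. In ema, which acts in endosomal maturation, a 207-nt coding exon (3R:16437793-16437999, minus strand) was included in 73.1, 75.2 and 69.5% in d38, below the 87.1% ± 2.93 (SD, n = 3) of GFP and the 94.4% ± 2.41 of WT. RRM2 stood at 95.6% ± 0.672, and d38 differed from it by a log2 change of -2.80 (SE 0.25, adjusted p 7.74e-06). In the zinc finger gene Zn72D a 101-nt 5' UTR exon was at 81.1% ± 1.62 in GFP, 63.0% ± 10.97 in WT and 81.7% ± 3.40 in RRM2, with d38 at 92.6% ± 2.18. d38 was the highest, and it differed from WT (adjusted p 7.02e-05) and from RRM2 (adjusted p 0.0218). The 39-nt exon of hppy, a MAP4K3 kinase, was at 56.6% in GFP, 71.5% ± 3.18 in WT and 38.9% ± 9.38 in RRM2 (adjusted p 0.0156 between RRM2 and WT, 0.147 between RRM2 and GFP); without RRM2 replicate 2, WT replicate 2 or WT replicate 3 that call was lost (adjusted p 0.094, 0.0583 and 0.0574). By contrast, d38 and GFP libraries overlapped in the next exon: in the gene of the ferritin heavy chain, Fer1HCH, a 526-nt 5' UTR exon was at 43.1% ± 15.3 in GFP, 54.7% ± 8.72 in d38 and 21.2% ± 2.59 in WT (adjusted p 0.00972 between d38 and WT, 0.417 between d38 and GFP). With minimal pairs the difference between d38 and WT was exactly 0 points, which is again not read as equal inclusion.

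For several exons no difference was detected between d38 and RRM2, among them LRR (61.2% ± 4.22 and 52.2% ± 1.67, adjusted p 0.247), ATP8B (48.1% ± 8.58 and 52.9% ± 4.14, adjusted p 0.782), Rala (69.3% ± 1.73 and 69.2% ± 0.542, adjusted p 1.0) and Mlf (51.1% ± 2.32 and 50.9% ± 2.69, adjusted p 1.0). The Mlf exon lay between GFP and WT in both, and each differed from WT (adjusted p 0.00536 for d38 and 0.0113 for RRM2). The CG12065 exon had a level of its own in each group. It was at 5.70% in GFP, 10.4% ± 0.373 in RRM2, 15.4% ± 0.423 in d38 and 28.2% in WT, and each pair of these groups was called, with adjusted p up to 0.00308.

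Some exons were called between an altered form and GFP but not between WT and GFP. Such a pair of outcomes does not show that the altered form differs from WT. In the dyskerin gene Nop60B a 34-nt 3' UTR exon (2R:24185988-24186021, plus strand) was at 36.6% ± 7.24 in GFP, 65.5% ± 3.58 in WT (adjusted p 0.197), 80.6% ± 8.27 in d38 (adjusted p 0.047) and 91.3% ± 2.58 in RRM2 (adjusted p 0.00631). Every WT library of Nop60B also lay above every GFP library. The d38 call of Nop60B was lost without any of the 6 d38 and GFP libraries (adjusted p from 0.0666 to 0.162). A 54-nt coding exon of rdgA was at 0, 2.50 and 0% in GFP, 0, 15.7 and 14.3% in WT and 45.7, 32.7 and 32.1% in d38 (adjusted p 0.00176 for d38 against GFP). d38 and WT did not differ past the threshold there (adjusted p 0.0565).

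Within the second library set, Beta5 and GSlinker differed in 52 events (3.57%), 27 higher and 25 lower in Beta5, with 25 (1.72%) at 10 points or more. Beta5 and SF1 differed in 102 (7.01%), 49 higher and 53 lower, with 51 (3.5%) at 10 points or more. GSlinker and SF1 differed in 151 (10.4%), 68 higher and 83 lower, with 72 (4.95%) at 10 points or more. These 3 counts depended on the fit: with the 9 libraries of this set alone they were 22, 39 and 72, an alternative chosen after the data were seen. With the 6 libraries of each pair alone, limma called 0 events between Beta5 and GSlinker and 0 between GSlinker and SF1 (smallest adjusted p 0.0528 and 0.0529; 211 and 239 events at an unadjusted p under 0.05), while edgeR's diffSpliceDGE, run with all 21 libraries in 1 fit and not on these 6, called 75 and 157. Between Beta5 and SF1 limma then called 30.

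The nemy exon set GSlinker apart: it was included in 75.5, 69.7 and 72.7% in Beta5, 69.7, 71.6 and 78.6% in SF1 and 37.0, 44.2 and 34.6% in GSlinker (adjusted p 0.00899 against Beta5 and 0.00279 against SF1). The 3-nt exon of the annexin gene AnxB10 (X:20171929-20171931, minus strand) was at 40.0, 47.5 and 41.5% in Beta5, 61.9, 67.8 and 66.0% in GSlinker and 55.2, 52.8 and 53.9% in SF1. Beta5 and GSlinker differed there by a log2 change of -1.29 (SE 0.13, adjusted p 4.39e-05). In Xrp1, a stress-response bZIP factor, a 90-nt 5' UTR exon was at 79.4% ± 2.98 (SD, n = 3) in Beta5 and 55.0% ± 6.99 in GSlinker (adjusted p 0.00909); with every transcript that has the exon counted, they differed by 1.58 points. The calls of nemy, AnxB10 and Xrp1 held in the fit of the 9 libraries.

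Against SF1, Beta5 had lower inclusion of the Mlf exon (32.1% ± 1.56 against 55.2% ± 9.12, adjusted p 0.000634) and of a 795-nt coding exon of dystroglycan, Dg (14.2% ± 1.53 against 37.6% ± 10.7, adjusted p 0.00063). From these 2 groups alone the adjusted p were 0.111 and 0.0991. The pyd exon was at 66.4, 64.4 and 62.8% in Beta5, 63.7, 68.4 and 69.5% in GSlinker and 40.8, 38.7 and 46.9% in SF1. SF1 stood apart from both and differed from Beta5 with an adjusted p of 0.000105. With minimal pairs Beta5 and SF1 differed by exactly 0 points, which is not read as equal inclusion here either. GSlinker had higher inclusion than SF1 of an 804-nt exon of spir, which nucleates actin (76.2% ± 9.55 against 38.3% ± 9.85, adjusted p 0.000247; 15.2 points and 0.125 with minimal pairs), and lower inclusion of a 417-nt exon of the matrix protein papilin, Ppn (37.5% ± 3.81 against 72.6% ± 11.9, adjusted p 0.001). For Sdc, the syndecan gene, and the adenylyl cyclase gene Ac76E the calls between GSlinker and SF1 had adjusted p of 0.0393 and 0.045, and single libraries decided them. Ac76E was at 62.9, 46.3 and 97.7% in GSlinker, and without GSlinker replicate 3 the adjusted p were 0.11 for Sdc and 0.164 for Ac76E. The calls were also lost without SF1 replicate 2 or 3 (up to 0.174), that of Ac76E without GSlinker replicate 1 (0.0609) and that of Sdc without SF1 replicate 1 (0.0936).

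WT and GFP share no library with the comparisons inside the second set or with d38 against RRM2, so their calls can be set side by side. Of the 71 events called between d38 and RRM2, 49 (69%) were among the 290 called between WT and GFP, which is 16.9% of those 290; of the 1166 events not called between WT and GFP, 1.89% were called. In 34 of the 49, RRM2 was displaced from d38 in the direction in which WT was displaced from GFP, and in 15 d38 was. Over all 290 events, called between d38 and RRM2 or not, RRM2 was on the side of WT in 156 and d38 in 130. Of the 52 events called between Beta5 and GSlinker, 33 (63.5%) were among the 290 (11.4% of them), with GSlinker on the side of WT in 30, and in 186 of all 290 against 102 for Beta5. Of the 102 called between Beta5 and SF1, 58 (56.9%) were among the 290 (20% of them), with SF1 on the side of WT in 51, and in 210 of all 290 against 77 for Beta5. Of the 151 called between GSlinker and SF1, 66 (43.7%) were among the 290 (22.8% of them), with SF1 on the side of WT in 41 and GSlinker in 25. Over all 290 these were 178 and 112. Of the 1166 events not called between WT and GFP, 1.63% were called between Beta5 and GSlinker. The share was 3.77% between Beta5 and SF1 and 7.29% between GSlinker and SF1. All comparisons use 1 estimate of the spread per event and favour events with more counts, which these overlaps include.

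Across the library sets the counts were larger: 293 events for Beta5 against GFP (20.1%; 141 higher and 152 lower, 173 or 11.9% at 10 points or more), 438 for GSlinker against GFP (30.1%; 187 and 251, 248 or 17%) and 415 for SF1 against GFP (28.5%; 194 and 221, 229 or 15.7%). Against WT they were 311 for Beta5 (21.4%; 149 and 162, 175 or 12%), 307 for GSlinker (21.1%; 135 and 172, 182 or 12.5%) and 221 for SF1 (15.2%; 93 and 128, 120 or 8.24%). In these comparisons the altered form and the library set cannot be told apart. Several of the widest differences lay between the sets more than within them. A 449-nt exon in the 5' UTR of trx (3R:14279093-14279541, minus strand) was at 93.98, 97.8 and 87.2% on average in Beta5, GSlinker and SF1, and at 12.8, 36.1, 36.4 and 30.3% in GFP, WT, d38 and RRM2. A 113-nt exon of sesB, the mitochondrial ADP/ATP carrier, was at 17.8, 9.24 and 19.9% in the 3 groups of the second set and at 65.4, 56.6, 45.4 and 47.5% in those of the first. In lap, the clathrin adaptor AP180, a 261-nt coding exon was at 23.8% ± 15.1, 27.6% ± 23.9 and 48.4% ± 18.9 in the second set and between 74.4 and 82.7% on average in the first.

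Exons described above had these levels in the second set. The DIP1 exon was at 43.5, 46.0 and 47.9% in Beta5, 29.6, 27.7 and 23.1% in GSlinker and 28.4, 30.1 and 30.1% in SF1, all between the WT and GFP libraries. The eIF4B exon lay at 60.5% ± 1.13 in Beta5, 56.6% ± 2.51 in GSlinker and 60.7% ± 1.14 in SF1, also between WT and GFP. The Rala exon lay at 63.6% ± 2.92, 58.4% ± 4.11 and 55.6% ± 5.22 in the same order, under the 88.2% of GFP, with GSlinker and SF1 also under the WT mean. The CG12065 exon was at 5.95% ± 0.301 in Beta5, close to the 5.70% of GFP, and at 11.01% ± 0.704 in GSlinker and 17.0% ± 2.19 in SF1.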

How the data were processed

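Per the file headers, the authors' deposited tables give for each of 30594 transcripts per library an estimated count (not whole, not scaled between libraries) and a TPM, which divides it by the effective length. Per the submitters' processing notes the tools were STAR and kallisto and the builds dm6 and BDGP6; versions are not given in the sources used here. Transcripts were matched to the BDGP6 annotation of Ensembl release 115 (30242, 98.8%, of which 99.4% had the same length); coordinates count from 1. Genome sequence was not analysed here. Members and gene lists were chosen with earlier results of these data known.

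Inclusion was computed from TPM. limma 3.58.1 (R 4.3.3) was fitted on log2((inclusion + 0.01) / (1 − inclusion + 0.01)) with a mean per group, over all 21 libraries (14 residual degrees of freedom), for 15 comparisons, with Benjamini-Hochberg adjustment and a threshold of 0.05. In counts simulated for WT against GFP (1456 events, 200 of them changed), 97.5% were recovered and 4.41% of 204 calls were false. The simulated counts had a dispersion of 0.02. Changed events had a 3-fold change of the including count and mean counts of 20 or more. The uncertain assignment of reads to transcripts was not simulated. These rates, and those of edgeR on the same counts, therefore need not hold for the data. edgeR 4.0.16 (diffSpliceDGE) on rounded counts was an alternative; it recovered 100% with 12.3% of 228 calls false. Named exons were called, had groups that did not overlap and 50 or more estimated counts in each library of both groups; with 1 event per exon (that with most counts, which leaves out the widest rise of wdb) and 1 exon per gene (the largest difference), the 12 largest rises and falls between WT and GFP, and 3 of each in the other comparisons, were taken. One selected exon is not reported here. Which of them are described most fully, the genes named from the lists, sw and the second Usp2 exon were chosen after their values were seen. Figures were drawn with matplotlib 3.10.9.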

Additional observations from a re-analysis of the deposited data

How the results depend on the processing

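Inclusion is known only as far as annotated transcripts and their estimated levels go: reads over starts, ends or other exons move it, and few junction reads stand behind short exons. Events of few counts or near 0 or 100% depend on the offset and on single libraries. The counts of events below are given in the order WT, d38 and RRM2 against GFP, d38 and RRM2 against WT, d38 against RRM2, Beta5 against GSlinker, Beta5 against SF1, GSlinker against SF1, then Beta5, GSlinker and SF1 against GFP and against WT, where a setting moved them by over 1.5 times. With a difference of 10 points required they were 147, 62, 59, 62, 25, 30, 25, 51, 72, 173, 248, 229, 175, 182 and 120. With minimal transcript pairs, which leave 882 events to test, they were 183 for WT against GFP, 83 for d38 and 24 for RRM2 against WT, 96 for GSlinker against SF1, 171, 255 and 232 for the second set against GFP and 194, 168 and 132 against WT. In fits of the 2 groups alone they were 21 for RRM2 against WT, 30 for Beta5 against SF1, 265 and 219 for GSlinker and SF1 against GFP and 45 for SF1 against WT. For Beta5 against GSlinker and GSlinker against SF1 limma then made 0 calls, with 211 and 239 events at an unadjusted p under 0.05, while edgeR, fitted on all 21 libraries, called 75 and 157. With library weights d38 against WT gave 195, d38 against RRM2 142 and GSlinker against SF1 84. edgeR gave 208 for RRM2 against GFP. Fits within the second library set, added after the data were seen, gave 22, 39 and 72. The other settings (offsets, filters, counts in place of TPM, any transcript with the exon) kept every count within 1.5 times.

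Without 1 library, the counts ranged from 228 to 248 for WT, 95 to 127 for d38 and 88 to 116 for RRM2 against GFP. Ranges were 77 to 108 for d38 and 31 to 47 for RRM2 against WT, 36 to 58 for d38 against RRM2, 21 to 50 for Beta5 against GSlinker, 64 to 89 for Beta5 against SF1 and 108 to 135 for GSlinker against SF1. Across sets they were 211 to 268, 358 to 423 and 315 to 415 against GFP and 227 to 272, 246 to 308 and 104 to 259 against WT. Counts moved by over 1.5 times without d38 replicates 2 (98) and 3 (95) against GFP; without d38 replicate 3 (84) and WT replicate 3 (77) in d38 against WT; without RRM2 replicates 1 and 2 (31 each) and WT replicate 3 (32) in RRM2 against WT; without d38 replicates 2 (45) and 3 (36) and RRM2 replicates 1 (45) and 2 (39) in d38 against RRM2; without SF1 replicate 3 (104) and WT replicate 3 (120) in SF1 against WT; without Beta5 replicates 1 (64) and 3 (65) in Beta5 against SF1; and without Beta5 replicates 1 (32), 2 (33) and 3 (21) and GSlinker replicates 1 (29) and 2 (33) in Beta5 against GSlinker. The cause of these shifts was not tested; fewer libraries remain in each.

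Of the named exons' calls, 1303 values under other settings kept direction and call, 101 lost the call and 1 reversed. The reversal was that of Ziz, -24.4 points with minimal pairs. The 1303 include 108 values from the setting that required a minimum difference in inclusion. Named exons were picked for the largest differences, so that setting could not remove their calls and is no test of them. The losses were uneven: fits of the 2 groups alone kept 62 calls and lost 46. Without 1 library 538 values kept the call and 110 lost it. Replicate numbers do not pair the libraries: deviations of same-numbered libraries correlated by -0.113 to 0.0657 on average. With the replicate block 262 events were called for WT against GFP, 136 and 117 for d38 and RRM2 against GFP, and 121 and 45 against WT.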
